A study of Mus musculus with 4 samples.

Results

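The expression of 10 genes for selenoproteins and peroxide-removing enzymes was followed through the cell classes of the postnatal mouse thyroid. They are the selenoprotein genes Gpx1, Gpx3, Gpx4, Selenop, Selenow, Selenom, Selenof, Txnrd1 and Txnrd2, and the catalase gene Cat. The members were taken by symbol, and all 10 were found among the 32285 genes of the count matrices. Thyroids of C57BL/6 mice (C57 in the labels) at postnatal day 5, 10, 20 and 30 had been cut, digested with collagenase and dispase, freed of dead cells and loaded on a 10x droplet system that reads the 3' end of transcripts. The tissue of 10 mice was pooled for each age, no animal was treated, and each age has 1 library without a replicate. No test across ages was therefore run. The unit throughout is CPM, the unique molecular identifiers (UMIs) of a gene per 1000000 UMIs of a cell class in 1 library. It is a share of the RNA captured from a class and not an amount per cell. Values in the 4 libraries are given in the order of the labels, day 5, day 10, day 20 and day 30.

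Selenoproteins carry selenocysteine, a residue that is inserted at a UGA codon otherwise read as a stop. In many of these enzymes it is the catalytic residue with which hydrogen peroxide, lipid peroxides or oxidised thiols are reduced. Follicular cells of the thyroid make hydrogen peroxide at their apical side with the dual oxidases, and it is used there to iodinate thyroglobulin. The thyroid is known for a high selenium content, and the glutathione peroxidases, the thioredoxin reductases and catalase are its classical peroxide-removing enzymes. The question of the comparisons was where these genes are expressed, with follicular cells set against the other classes.

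The libraries held 54921806 to 89039113 UMIs, and 4820 to 12956 cells per library were kept, with medians of 3035 to 7060.5 UMIs per cell. A total of 29578 cells fell into 43 clusters, which were named from marker genes as 16 classes, and 426 cells stayed unnamed. The genes described here were left out of the clustering. Follicular cells numbered 3233, 788, 412 and 729, and all 8 of their markers were detected in each library, Tg among them. Classes with at least 20 cells in every library entered the tests, namely follicular cells, C cells, parathyroid, endothelial, fibroblast, mural, nerve, macrophage, dendritic, T, B and NK cells and innate lymphoid cells of type 2, whose cluster was also led by the mast cell genes Cma1, Cpa3 and Tpsb2. Several values go against the labels or set a library apart. H19, a transcript of immature tissue, had 60.5, 815, 124 and 2884 CPM in fibroblasts, which is not an order by labelled age, and the study's account gives its highest cell number for day 30 whereas the matrix labelled day 5 holds most cells. The barcode suffixes 1, 2, 3 and 4 of the authors' cell table belong to the matrices labelled day 30, 10, 20 and 5. In that order H19 fell in fibroblasts, with 2884, 815, 124 and 60.5 CPM. Whether labels were exchanged was not tested, and an exchange of day 5 and day 30 would turn the ratios between them. T cells, with thymocyte genes such as Rag1 leading their largest cluster, made up 4051 of 6150 cells in the day 20 library, and their 6 markers summed to 131 CPM in its follicular cells, against 5.93 to 14.6 in the other libraries. The day 10, 20 and 30 matrices share 97.4% to 98.8% of each other's cell barcodes, at medians of 8 to 12 UMIs, and the part of this in the results was not tested. The names day 5 library, day 10 library and so on stand for labels only.

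The codon that unites the 9 selenoprotein genes is given here in its coding context, 12 bases on each side where the transcript allows, with the TGA read as selenocysteine in capitals. Sequences are those of GENCODE transcripts on GRCm38, 5′ to 3′ on the coding strand.
Gpx1: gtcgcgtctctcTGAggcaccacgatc
Gpx3: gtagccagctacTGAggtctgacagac
Gpx4: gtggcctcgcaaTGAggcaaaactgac
Txnrd1: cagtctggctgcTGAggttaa
Txnrd2: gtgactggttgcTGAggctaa
Selenow: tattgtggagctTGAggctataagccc
Selenom: acctgtggaggaTGAcagttgaatcgc
Selenof: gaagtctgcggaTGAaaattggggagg
Selenop, first codon: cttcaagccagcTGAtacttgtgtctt
In both thioredoxin reductases the codon stands 1 codon before the stop, at residue 498 of 499 in Txnrd1 and at residue 526 of 527 in Txnrd2. The glutathione peroxidases carry it in the interior, at residue 47 of 201 in Gpx1 and at residue 73 in both Gpx3 and Gpx4. Selenop holds 10 such codons, the first at residue 59 and the other 9 between residues 259 and 377 of 380. Its last codons lie so close that 1 window shows a pair of them: cagaccaggaagTGAaaaTGAcattca. The windows of Gpx1 and Gpx4 were equal at 17 of 27 bases, those of Gpx3 and Gpx4 at 16, and those of Gpx1 and Gpx3 at 13. Selenow and Selenom shared 15 of 27 bases.

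Against the mean of the other 12 tested classes, follicular cells had more Gpx4, Cat and Txnrd1, less Selenop and Selenom, and no called difference in the other 5 genes. UMIs were summed per class and library, and the 52 sums were compared with edgeR (quasi-likelihood test, library as block, Benjamini-Hochberg adjustment over 10305 genes), each class weighing equally on the log scale. Of the 10 genes, 3 were called higher, where 33.3% of all genes tested were, and 2 were called lower, where 25.8% were. These counts lie near the background and say nothing particular about the set. The median log2 difference was 0.105 over the 10 genes and 0.037 over all genes tested. Set against each class singly, follicular cells were higher in 41 pairs of gene and class (background 26.6%) and lower in 26 (background 22.4%), with 12 pairs per gene. With library as block, the spread behind these tests is how far class differences vary between the 4 libraries of different labelled age. This spread is estimated over all 13 classes together and is not that of the follicular difference alone. It may be technical in part.

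**Figure D1:**
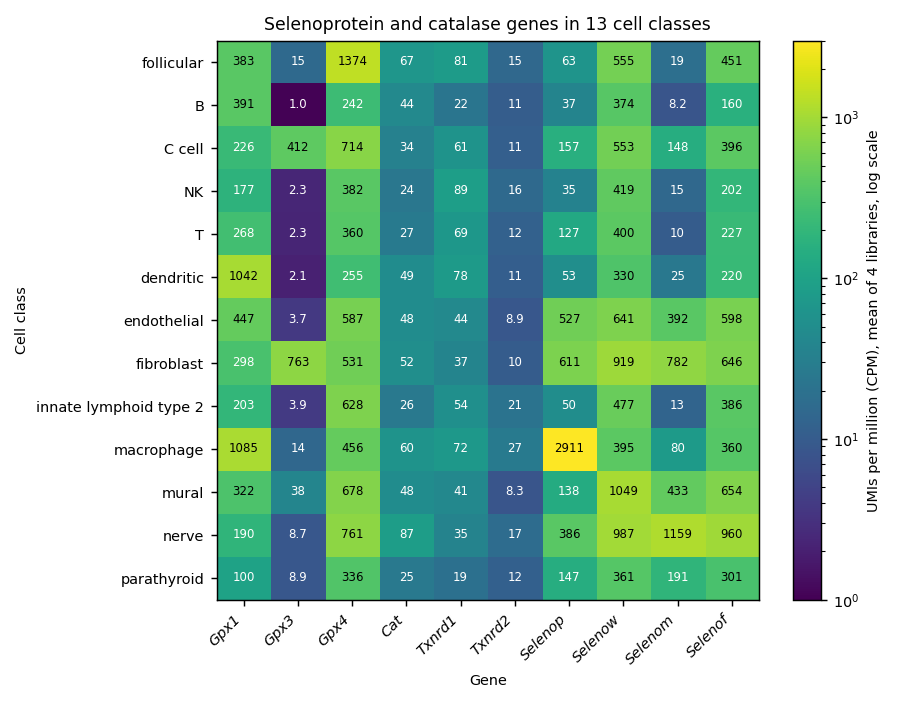
Levels of the 10 genes (columns) in the 13 tested cell classes (rows), as the mean CPM over the 4 libraries, printed in each field and on a log colour scale. Gpx4 was highest in follicular cells with 1374 CPM, Selenop in macrophages with 2911 CPM and Gpx3 in fibroblasts with 763 CPM.

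**Figure D2:**
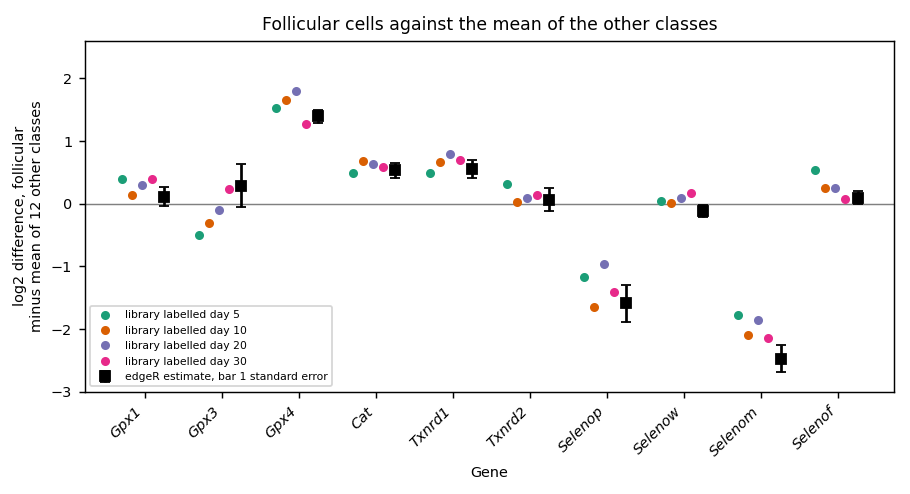
Log2 difference of follicular cells minus the mean of the 12 other tested classes for each gene. Coloured points are the 4 libraries on the log2(CPM + 10) scale, and black squares are the edgeR estimates with 1 standard error as bar. All 4 libraries lie above 0 for Gpx4, Cat and Txnrd1 and below 0 for Selenop and Selenom. They also lie above 0 for Gpx1, Selenow, Selenof and Txnrd2, which were not called, and for Selenow the edgeR estimate is negative.

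Gpx4 (chr10:80047166-80056439, plus strand of GRCm38) encodes the glutathione peroxidase that reduces lipid hydroperoxides inside membranes. Follicular cells had 1687, 1298, 1436 and 1077 CPM, or 1374 ± 255 (SD, n = 4 libraries). By mean level nerve cells came next with 1137, 635, 697 and 578 CPM, followed by C cells with 979.5, 656, 652 and 568 CPM. Follicular cells ranked first of the 13 tested classes in each library, although their lowest value, in the day 30 library, lay below the highest of nerve cells. The edgeR difference from the mean of the other classes was 1.40 on the log2 scale (SE 0.10, adjusted p = 6.5e-16), which is 2.63-fold. Gpx4 was also called higher than in each of the 12 classes taken singly, from 0.80 on the log2 scale against C cells (SE 0.16, adjusted p = 0.00017) to 2.24 against B cells (SE 0.17). In all, 1.54% of genes (196 of 12718) were higher in follicular cells than in every other class, and Gpx4 was the only one of the 10 among them. B cells had the lowest mean, with 319, 215, 216 and 219 CPM. The droplets with 10 to 100 UMIs, which hold free RNA, contained 1388, 614, 782 and 668 CPM of Gpx4. C cells held Tg at 1.29% to 2.36% of their UMIs, above its share of free RNA. The part of follicular RNA in their Gpx4 was not tested. A pseudogene, Gpx4-ps2, is annotated, and how reads shared with it were counted is not known.

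**Figure D3:**
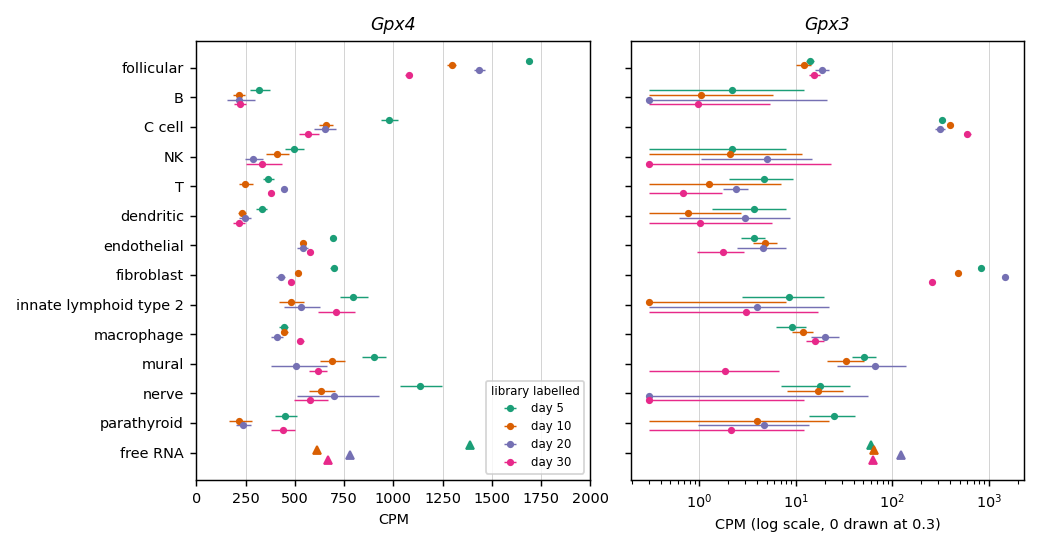
Gpx4 (left, linear axis) and Gpx3 (right, log axis) in CPM in each class, 1 point per library. For Gpx4 the follicular points, 1077 to 1687 CPM, lead in every library, and for Gpx3 fibroblasts (257 to 1485 CPM) and C cells (315 to 600 CPM) stand apart from the other classes.

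Gpx1 (chr9:108338903-108340343, plus strand) encodes the cytosolic glutathione peroxidase, which reduces soluble hydrogen peroxide. Its levels in follicular cells were 493, 336, 349 and 352 CPM. Macrophages had 1116, 1188, 1045 and 993 CPM and dendritic cells 1266, 922, 1098 and 883 CPM. None of these values overlapped with those of follicular cells. Monocytes, which had too few cells for the test in at least 1 library, held 2320, 1747, 2195 and 1636 CPM, the highest mean of the 16 named classes. Against the mean of the 12 classes the difference was 0.11 (SE 0.15, adjusted p = 0.55, edgeR). This mean hides both directions: Gpx1 was lower in follicular cells than in dendritic cells (-1.92 on the log2 scale) and macrophages (-1.83, SE 0.22 for both), and it was higher than in C cells, innate lymphoid, nerve, NK and parathyroid cells, by 0.61 to 1.481. Over the 4 macrophage clusters and the libraries with at least 20 cells it ran from 749 to 1473 CPM, both in the day 5 library.

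Gpx3 (chr11:54902453-54910377, plus strand) encodes the secreted glutathione peroxidase of plasma, which acts outside the cell. It was a gene of fibroblasts and C cells here. Fibroblasts had 834, 478, 1485 and 257 CPM and C cells 331, 402, 315 and 600 CPM, whereas follicular cells had 14.0, 12.2, 18.97 and 15.6 CPM. The follicular values lay below every value of fibroblasts and C cells, and also below the 60.3, 64.8, 123 and 63.9 CPM of free RNA. In cells thinned to 1000 UMIs, 17.9% to 61.1% of fibroblasts had a Gpx3 UMI (65.0% to 91.6% unthinned), against 1.29% to 2.63% of follicular cells (11.0% to 21.3% unthinned) and at most 0.57% of T cells (0.3% to 1.5% unthinned). The thinning kept 2956, 646, 376 and 620 follicular cells. Per 1000 Tg UMIs there were 0.283 to 0.450 Gpx3 UMIs in follicular cells and 4.53 to 7.63 in free RNA.

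In the single contrasts Gpx3 was lower in follicular cells than in fibroblasts (-5.56 on the log2 scale, SE 0.47, adjusted p = 3.5e-13, edgeR), and the difference from C cells was -5.05 (SE 0.46, adjusted p = 1.3e-11). It was higher than in B, dendritic, endothelial, NK and T cells, by 2.12 to 3.27, where levels were 0 to 5.08 CPM. The contrast with the mean of all classes gave 0.29 (SE 0.34, adjusted p = 0.48), opposite in sign to the plain means of 15.2 and 105 CPM and to the differences of log2(CPM + 10) in 3 of the 4 libraries. Without C cells it was 0.87 and was called (adjusted p = 0.016). Within fibroblasts the level differed between clusters and libraries. Cluster 6, led by Dcn and Mgp and holding 1360 of the 1576 fibroblasts of the day 5 library, had 910, 353 and 1663 CPM in the first 3 libraries. Cluster 7, led by collagen genes and holding 603 of the 755 fibroblasts of the day 30 library, had 534, 500, 994 and 266 CPM. Cluster 6 also held 319 of the 391 fibroblasts of the day 20 library and cluster 7 held 853 of the 1053 of the day 10 library, so the main cluster was shared by the day 5 and 20 libraries and by the day 10 and 30 libraries. H19 was among the leading genes of cluster 7. Both C cell clusters carried Gpx3, with 308 to 581 CPM in cluster 31 and 404 to 733 CPM in cluster 35. C cells also held Tg at 1.29% to 2.36% of their UMIs, above its share of free RNA, and the part of follicular RNA in their values was not tested, although follicular cells themselves had little Gpx3.

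Cat (chr2:103453849-103485160, minus strand) encodes catalase, the heme enzyme of peroxisomes that splits hydrogen peroxide without selenium. Follicular cells had 43.7, 70.8, 79.8 and 73.9 CPM, second of the tested classes to nerve cells (78.5, 71.3, 121 and 77.0 CPM) in every library. The nerve values rested on 105 UMIs over the 4 libraries, with 24 nerve cells in the day 20 library. Follicular and nerve values overlapped, and their difference was not called (-0.22, SE 0.20, adjusted p = 0.42, edgeR). The difference from the mean of the 12 classes was 0.53 (SE 0.12, adjusted p = 0.00020), or 1.45-fold. In cells thinned to 1000 UMIs it was 0.29 and was not called (adjusted p = 0.25). Cat was called higher than in 7 classes, most of all NK cells (1.33, SE 0.23), and lower than in none of the 12. NK cells had 12.01, 14.8, 37.2 and 30.8 CPM on 5 to 22 UMIs.

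Txnrd1 (chr10:82833951-82897712, plus strand) encodes the cytosolic thioredoxin reductase, which keeps thioredoxin and with it the peroxiredoxins reduced. Its follicular levels were 73.9, 84.8, 86.9 and 77.1 CPM. Of the largest follicular clusters, cluster 3 had 61.0, 34.7, 46.6 and 47.6 CPM and cluster 4 had 89.1, 90.9, 93.4 and 78.9 CPM, higher in each library. Cluster 3 held 1579 of the 3233 follicular cells of the day 5 library and 55 of the 729 of the day 30 library. NK cells had 72.1, 118, 105 and 61.6 CPM and overlapped with follicular cells, whereas parathyroid cells had 21.5, 15.8, 22.0 and 17.3 CPM and did not. Follicular cells exceeded the mean of the 12 classes by 0.55 on the log2 scale (SE 0.14, adjusted p = 0.0010, edgeR), or 1.46-fold, and 6 of the 12 classes taken singly, by 0.89 to 1.59. The untested monocytes (165, 297, 321 and 204 CPM) and neutrophils (242, 178, 204 and 170 CPM) lay above every follicular value. Txnrd1 overlaps Eid3 on the same strand, so reads in the shared part are uncertain. With at most 10000 UMIs per cell, the study's own limit, the difference was 0.26 and was no longer called (adjusted p = 0.25).

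Txnrd2 (chr16:18426384-18479073, plus strand), the mitochondrial thioredoxin reductase, was sparse in every class. Follicular cells had 18.3, 13.2, 15.8 and 13.4 CPM, and macrophages had 28.3, 24.5, 25.7 and 28.8 CPM with no overlap. Macrophages were higher by the test (follicular minus macrophage -1.14, SE 0.25, adjusted p = 9.5e-05, edgeR), and endothelial cells, with 7.9 to 9.7 CPM, were lower (0.84, SE 0.25, adjusted p = 0.0036). The other 10 classes were not called, and the contrast with the mean was 0.06 (SE 0.18, adjusted p = 0.79). Free RNA held 11.0 to 15.4 CPM, about the follicular level.

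Selenop (chr15:3268547-3280508, plus strand) encodes selenoprotein P, the secreted protein with many selenocysteines that carries selenium to tissues. Macrophages had the most of the tested classes, with 1306, 3765, 3335 and 3238 CPM. Follicular cells had 60.2, 53.2, 97.9 and 42.5 CPM, less than any value of macrophages, fibroblasts (484 to 797 CPM) and endothelial cells (341 to 756 CPM). The difference from the mean of the 12 classes was -1.59 on the log2 scale (SE 0.30, adjusted p = 1.5e-05, edgeR). This is 0.33 of the mean taken on the log scale. The plain means were further apart, 63.4 CPM in follicular cells and 431 CPM in the other classes. Follicular cells were called lower than 7 classes, with -5.86 against macrophages (SE 0.42), and higher than none. B, dendritic, innate lymphoid, mural and NK cells were not called. Free RNA held 154, 335, 296 and 285 CPM of Selenop, more than follicular cells in every library. The gene overlaps Ccdc152 on the other strand.

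The macrophage level of Selenop depended on the cluster. Cluster 8, led by Pf4 and the C1q genes with Mrc1, had 3284, 4391, 5104 and 3801 CPM. In cluster 10, led by the chemokine genes Ccl4, Cxcl2 and Ccl3, the values were 478, 831, 1434 and 876 CPM, below those of cluster 8 in each library. Cluster 10 held 646 of the 1032 macrophages of the day 5 library and 31 of the 501 of the day 30 library. The day 5 library was the lowest within each of the 4 clusters too, with 568 CPM against 1528 to 1821 in cluster 29 and 321 CPM against 1817 and 1845 in cluster 37. Gpx1 differed less between the same clusters, with 1012 to 1473 CPM in cluster 8 and 868 to 1073 CPM in cluster 10.

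Selenom (chr11:3514684-3517351, plus strand), Selenof (chr3:144570304-144597680, plus strand) and Selenow (chr7:15917208-15922402, minus strand) encode small thioredoxin-like proteins, the first 2 of the endoplasmic reticulum and the last of the cytosol. All 3 had their highest tested means in nerve or mural cells. Selenom reached 1615, 1074, 1212 and 735 CPM in nerve cells and 1076, 729, 598 and 726 CPM in fibroblasts. Follicular cells had 36.8, 13.8, 15.2 and 9.5 CPM, far below both. The difference from the mean of the 12 classes was -2.47 on the log2 scale (SE 0.21, adjusted p = 5.3e-14, edgeR). This is 0.18 of the mean taken on the log scale, the largest difference of the 10 genes. The plain means were 18.8 and 271 CPM. Single contrasts were called lower for 8 classes, down to -5.91 against nerve cells (SE 0.28), and higher for T cells (0.69, SE 0.26, adjusted p = 0.018). The call against T cells rested on follicular cluster 21, which held endothelial markers and is described with the libraries: without it the difference was -0.11 (SE 0.26, adjusted p = 0.74), and the follicular level of the day 5 library was 11.8 CPM, against 23.1 CPM in T cells. Free RNA held 79.0 to 194 CPM of Selenom.

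Selenof stood at 552, 439, 394 and 419 CPM in follicular cells and at 787, 993, 985 and 1075 CPM in nerve cells, without overlap. It was called lower than in nerve cells (-0.96, SE 0.15, adjusted p = 7.6e-07, edgeR), fibroblasts and mural cells, and higher than in B, dendritic, NK and T cells, by 0.56 to 1.22. Without follicular cluster 21 the difference from mural cells was -0.31 and was not called (adjusted p = 0.085). The contrast with the mean was 0.10 (SE 0.11, adjusted p = 0.43). With at most 10000 UMIs per cell it was 0.34 and called (adjusted p = 0.012). Selenow had 738, 474, 480 and 527 CPM in follicular cells and 1557, 1040, 890 and 710 CPM in mural cells. It was called lower than in fibroblasts, mural and nerve cells, with -0.81 to -0.72, and a follicular excess was called against none of the 12 classes, but without cluster 21 it was called against dendritic (0.32, adjusted p = 0.028) and parathyroid cells (0.39, adjusted p = 0.018). Its difference from the mean was -0.11 (SE 0.10, adjusted p = 0.32).

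In the order of the classes by mean level, the 4 values of most classes overlapped with those of the class ranked next. For Gpx4, Cat and Txnrd2 no gap without overlap occurred between neighbours of the 16 named classes. Gpx3 had 1 gap, between C cells and mural cells, and mural cells stood at 51.6, 33.5, 67.0 and 1.9 CPM. Gpx1 had gaps below monocytes, below dendritic cells and between NK and parathyroid cells. The parathyroid mean was the lowest, although its highest value of 132 CPM lay above the lowest of nerve cells (125 CPM) and of lymphatic endothelial cells (129 CPM). Selenom had gaps below fibroblasts and below endothelial cells (563, 338, 325 and 343 CPM), and parathyroid cells followed with 269, 209, 187 and 99.7 CPM. For Txnrd1 the gaps lay below neutrophils and above B cells (15.2 to 29.9 CPM), for Selenop above B cells (28.2 to 45.4 CPM), and for Selenow and Selenof at the low end, above neutrophils. Neutrophils had 0 to 159 CPM of Selenow and 25.5 to 106 CPM of Selenof on 0 to 21 UMIs. Lymphatic endothelial cells, which had 1 to 48 cells per library and were not tested, held 1800, 573, 2922 and 623 CPM of Selenop, next to macrophages.

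Follicular cells of the 4 libraries differed in several of these genes, and with 1 library per age these are differences between libraries. The highest and the lowest library were at least 1.5-fold apart for 6 of the 10 genes, where 40.4% of the 8800 genes with at least 10 CPM were. At most 10000 UMIs per cell it was 3 of the 10, where 58.6% of genes were. Selenom spanned the widest range, 3.87-fold, then Selenop with 2.31-fold, Cat with 1.83-fold, Gpx4 with 1.57-fold and Gpx3 and Selenow with 1.56-fold. Selenop, Cat and Gpx3 were highest in the day 20 library, whose follicular cells held 7.08% mitochondrial UMIs, against 3.43% to 4.92% in the others. With cells of at most 5% mitochondrial UMIs, which kept 112 of the 412 cells of that library, the ranges were 2.79-fold for Selenop, 1.72-fold for Cat and 2.15-fold for Gpx3. Gpx1 (1.46-fold), Selenof (1.40-fold), Txnrd2 (1.39-fold) and Txnrd1 (1.18-fold) lay under 1.5. The median gene spanned 1.42-fold. At most 5% mitochondrial UMIs, Txnrd1 spanned 1.635-fold and Txnrd2 1.51-fold, and 51.0% of genes were at least 1.5-fold apart.

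Gpx1, Gpx4, Selenow, Selenom, Selenof and Txnrd2 had their highest follicular value in the day 5 library, and Cat its lowest there. The share of all genes that were highest in that library was not determined. Between the day 30 and day 5 libraries the log2 ratio was -0.65 for Gpx4 (95% counting interval -0.67 to -0.62), -0.49 for Gpx1 (-0.53 to -0.44) and 0.76 for Cat (0.64 to 0.87). For Txnrd1 the interval included 0 (0.06, -0.04 to 0.16), although within clusters 3 and 4 the day 30 library had the lower value of this pair. The median log2 ratio over all genes with at least 10 CPM was 0.22. Gpx4 and Gpx1 lay further from that median than from 0, and Cat lay nearer to it. Txnrd1 lay below the median. Tg (-0.50) and Duoxa2 (-0.62) of the follicular cells, like Gpx4 and Gpx1, had negative ratios between these libraries. The intervals cover counting error only, and labelled age and library cannot be told apart.

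**Figure D4:**
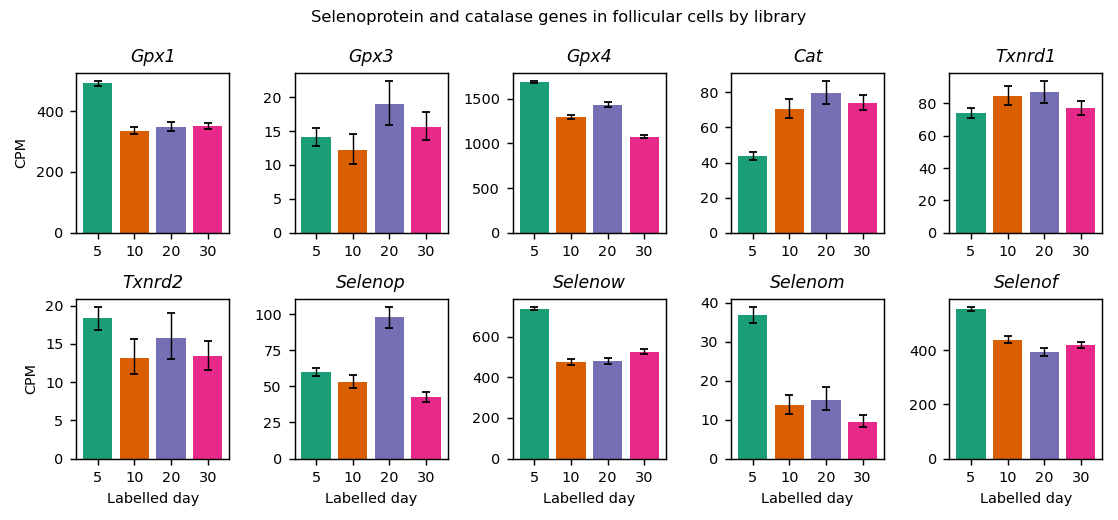
Level of each of the 10 genes in follicular cells (bars, CPM) by labelled day, with exact 95% Poisson intervals that cover counting error only. Gpx4 ran from 1687 CPM in the day 5 library to 1077 in the day 30 library, and Cat from 43.7 to 73.9 CPM.

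The day 30 to day 5 ratios of Selenom and Selenop changed strongly when 1 of the 5 follicular clusters was left out. The ratio of Selenom then stayed below 0, whereas the interval of Selenop included 0. Cluster 21, in which Grp stood among the leading genes, held 448 cells, 397 of them in the day 5 library. The 6 endothelial markers summed there to 3043 CPM in the day 5 library and 1954 CPM in the day 20 library, which is 28.3% and 18.4% of the endothelial level, against 0.21% to 1.60% in the other follicular clusters. Selenom had 157 CPM (95% Poisson interval 146 to 167) and 68.9 CPM (52.9 to 88.4) in cluster 21 of these libraries, and 1.79 to 27.7 CPM in the other clusters. Selenop had 139 and 237 CPM in cluster 21 and 23.4 to 81.3 CPM elsewhere. Without this cluster the day 30 to day 5 log2 ratio of Selenom was -0.41 (-0.72 to -0.12) in place of -1.95, and that of Selenop -0.10 (-0.24 to 0.04) in place of -0.50. Over the 4 libraries Selenop then still spanned 1.92-fold and Selenom 1.54-fold, where 42.6% of genes spanned at least 1.5-fold. With doublets kept the ratio of Selenop turned to 0.24 (0.15 to 0.33). Gpx4 was 1319 and 1170 CPM in cluster 21, and its ratio without the cluster was -0.71. Leaving out the cluster was decided after the data were seen. It left 3 genes called higher (background 36%) and 2 called lower (background 25.2%) against the mean of the other classes. Against single classes it gave 43 pairs higher (background 28.2%) and 28 lower (background 22.5%) in place of 41 and 26, and the calls that changed were those of Selenom with T and NK cells, Selenow with dendritic and parathyroid cells, Selenof with endothelial, mural and parathyroid cells and Selenop with mural cells.

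**Figure D5:**
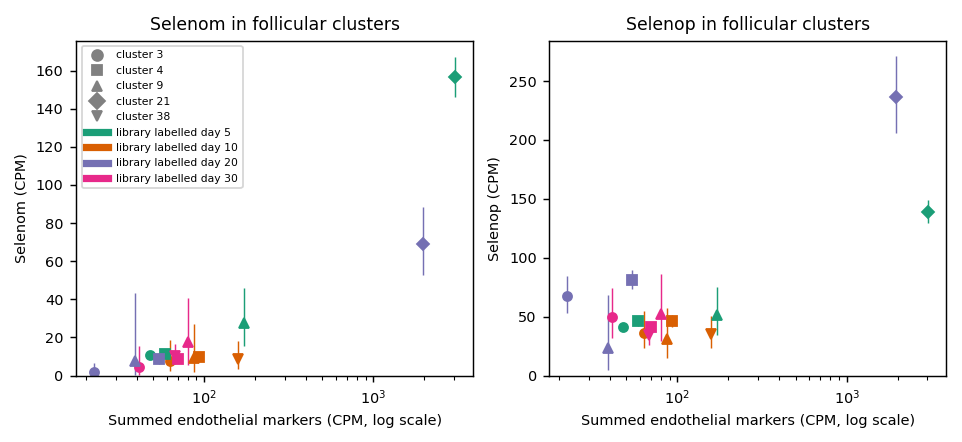
Selenom (left) and Selenop (right) in the follicular clusters with at least 20 cells in a library, in CPM with exact 95% Poisson intervals, against the summed CPM of 6 endothelial markers (log axis). Shape marks the cluster and colour the library. The 2 points of cluster 21, at 1954 and 3043 CPM of endothelial markers, lie above all others for both genes.

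Among the sources of peroxide, Duoxa2, the maturation factor of dual oxidase 2, was higher in follicular cells (85.3, 55.4, 46.1 and 55.3 CPM) than in the mean of the other classes, by 5.21 on the log2 scale (SE 0.24, adjusted p = 1.8e-22, edgeR). The dual oxidases themselves were sparse, and Duox1 (3.72 CPM on average), Duox2 (12.7 CPM) and Duoxa1 (5.21 CPM) did not pass the count filter. Of the phagocyte oxidase, the membrane subunit Cyba was higher in follicular cells (914 against 586 CPM, 0.85, adjusted p = 1.8e-07), and Ncf1 and the GTPase Rac2 were lower (-2.53 and -3.83). Ncf4 was not called (-0.61, adjusted p = 0.25). The catalytic subunit Cybb (2.10 against 61.3 CPM), Nox4 (0.30 against 6.64 CPM) and Nox1 (0.08 against 0.15 CPM) could not be tested, the first 2 because a class had no UMI.

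A further pair of selenoprotein genes was strongly follicular. Gpx2, a glutathione peroxidase known from epithelia of the gut, had 466, 496, 285 and 427 CPM in follicular cells, and Dio1, the deiodinase that activates thyroid hormone, had 414, 282, 266 and 181 CPM. Both exceeded the mean of the other classes, by 5.47 (SE 0.24) and 5.49 (SE 0.28) on the log2 scale (adjusted p = 4.5e-22 and 1.2e-19, edgeR). C cells, the class with Tg above free RNA, came next, with 208, 160, 99.7 and 93.8 CPM of Gpx2 and 182, 107, 147 and 72.3 CPM of Dio1. Msrb1, which repairs oxidised methionine, was higher by 1.40 (SE 0.16). Of the 16 other selenoprotein genes 12 were tested, with 6 called higher and 0 lower and a median of 0.44, where 33.3% of all genes tested were higher and 25.8% lower.

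Of 11 genes of selenocysteine synthesis and selenium supply 8 were tested, with 1 called higher, 3 lower and a median of -0.18, beside the same 33.3% and 25.8% over all genes. The selenoprotein P receptor Lrp2 (megalin) had 49.1, 61.3, 48.0 and 58.6 CPM in follicular cells and 117, 71.0, 89.5 and 58.5 CPM in parathyroid cells. Lrp1, another receptor of the same family, had 4.56 CPM in follicular cells and 823, 650, 1068 and 474 CPM in fibroblasts. Both had a class without any UMI and could not be tested.

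The other lists hold superoxide dismutases, peroxiredoxins and thioredoxins, the glutathione cycle and the NRF2 response, and most of their tested genes were called higher in follicular cells, where 33.3% of all genes were higher and 25.8% lower. Sod1, Sod2 and Sod3, the superoxide dismutases, and Ccs, the copper chaperone of Sod1, were all called higher (median 1.13), with Sod1 at 1.36 (276 against 103 CPM) and the extracellular Sod3 at 3.56, whose plain means were 102 and 39.3 CPM and which was highest in fibroblasts (223 CPM). Of 12 peroxiredoxin and thioredoxin genes 8 were called higher and 0 lower (median 0.73), with Prdx5 (790 against 239 CPM, 1.65) and Txn1 (1386 against 496 CPM, 1.42) leading. The glutathione cycle had 13 of 16 tested genes higher and 0 lower, with a median of 0.73. Its leading genes were the glutathione transferases Mgst1 (596 against 94.5 CPM, 3.59), Gsta4 (73.8 against 17.9 CPM, 3.41), Gstm1 (203 against 113 CPM, 1.97) and Mgst3 (217 against 82.8 CPM, 1.95). Gpx8, a peroxidase of the endoplasmic reticulum without selenium, was also called (1.85), but its plain means were alike, 73.2 and 75.1 CPM, since fibroblasts had 275 CPM. Of 8 tested genes of the NRF2 response, the transcriptional answer to oxidants, 7 were higher and 1 lower (median 0.72), with Blvrb, biliverdin reductase, at 2.09 and Acsl4, which makes the oxidisable lipids of ferroptosis, at -1.24. The lists were chosen with results of these data known, and their medians stand beside 0.037 over all genes.

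The genes whose levels ran most like a member over the 52 class and library sums were found by Pearson's r of log2(CPM + 10) among 7021 genes, given without a test, since sums of 1 class or library are not independent. Gpx4 ran with Snrnp27 (r = 0.87), Fdx1 (0.82) and Gatad1 (0.80), and Gpx3 with Clec11a (0.90), Nbl1 (0.88) and Trnp1 (0.85). For Selenom they were Npdc1 (0.89), Mpdz (0.89) and Lix1l (0.88), for Selenof Thra (0.91), Pde6d (0.90) and Slc12a4 (0.90), and for Selenow Prss23 (0.84), Phlda3 (0.83) and Slc12a4 (0.83). Selenop was closest to Slco2b1 (0.84), Rgl1 (0.83) and Oasl2 (0.82), and Gpx1 to Mapk14, Pnp and Ftl1 (0.81 each). Cat followed Hsd17b11 (0.78), 2610001J05Rik (0.77) and Rab14 (0.74), and Txnrd1 Map2k3 (0.69), Ppm1h (0.68) and Chmp4b (0.67). Txnrd2 reached 50 CPM in no class and was left out. Among the members themselves the closest were Selenom and Selenof (0.81), Selenow and Selenof (0.77) and Selenow and Selenom (0.74), and the most opposed were Selenom and Txnrd1 (-0.38).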

How the data were processed

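Raw counts of UMIs, made by the authors with CellRanger on mm10 (v2-4 and 10x 3' kits v2-v3 per the labels) and deposited without cell filter or normalization, were used. A deposited table of counts served for its list of 37503 barcodes taken as cells, and its counts were not used for the results. Each barcode listed once went to the library that held most of its UMIs. A barcode listed more than once went to the library of its suffix. Counts of the 10 genes in that table equalled those of the matrices in 88.8% (Gpx4) to 99.9% (Txnrd2) of cells. The cause of the difference was not tested. The submitters' processing notes name Seurat 3.6.3 and 3.1.4.

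Cells had at least 200 UMIs, at most 10% mitochondrial and at most 5% hemoglobin UMIs. The 6% with the highest Scrublet scores were removed per library, since the automatic threshold differed widely between libraries. It marked 9.16%, 1.98%, 0.015% and 0.215% of cells in the order of the labels. In the day 5 library, fewer cells were therefore removed than the automatic threshold marked. The study's limit of 10000 UMIs, which leaves 2838 of 5162 follicular cells, was an alternative. Cells were clustered with Leiden (leidenalg 0.10.2) at a resolution of 1.5 on 3000 variable genes and 30 principal components without the genes of the lists. Clusters took the class of their markers where at least 3 were detected and no other class led, and shallow clusters without own markers among their leading genes stayed unnamed.

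UMI sums per class and library were fitted in edgeR 4.0.16 (TMM, filterByExpr, robust quasi-likelihood, library as block, Benjamini-Hochberg) in R 4.3.3. A gene with no UMI in a class has no finite coefficient, so 2413 of 12718 genes could not be tested against the mean of the classes. In simulated data on 12718 genes this comparison found 76% of the 2-fold and 94% of the 4-fold changes put in, and 7.61% of its calls were on unchanged genes. The simulated classes shared a common profile apart from these changes, unlike the real classes, so these shares need not hold for the data. DESeq2 1.42.0 was an alternative. Between ages there was no test, and ratios of libraries have 95% counting intervals with 0.5 UMIs added. Free RNA was read in droplets with 10 to 100 UMIs. Cells were thinned to 1000 UMIs for shares. Cell counts per class and library and the total UMIs set the precision, and all intervals cover counting error only. Positions and sequences are those of GENCODE vM21 on GRCm38.

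The members and lists were chosen with earlier results of these data known. Named were all members, the peroxide sources (some results of this list are not reported here), the 20 list genes with the largest difference among those reaching 50 CPM in a tested class, and the 3 genes most like each member. H19, Tg, Grp and leading genes of clusters were named after their values were seen. Robust fitting, the 1.5-fold description between libraries with its minimum of 10 CPM, and the alternatives without C cells or without single follicular clusters were chosen after the data were seen.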

Additional observations from a re-analysis of the deposited data

Results flagged for a closer look

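Barcodes with over 50% hemoglobin UMIs, 376, 908, 76 and 573 in the order of the labels, were removed from the classes and are described here with hemoglobin genes left out of the total. Gpx1 stood at 4192, 18886, 6324 and 16586 CPM in them, 1.81 to 10.8 times the level of monocytes, the highest named class of each library, and 3.31 to 16.7 times the highest tested class. Cat stood at 449.6, 1127, 1054 and 1101 CPM, 5.73 to 15.8 times nerve cells, the highest class. For Gpx1 the lowest of these values was 4192.3 CPM. For Txnrd2 the values were 146, 353, 226 (on 3 UMIs) and 419 CPM. Gpx4, in contrast, was at 887, 429, 678 and 642 CPM, 0.33 to 0.60 of its follicular level. Red cells are known to hold glutathione peroxidase 1 and catalase.

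The difference of Gpx3 between follicular cells and the mean of the 12 other classes was -0.503, -0.302 and -0.103 on the log2(CPM + 10) scale in the day 5, 10 and 20 libraries and 0.229 in the day 30 library. With 1 library per age the change of sign was not tested. Fibroblasts of the day 30 library had 257 CPM of Gpx3, the lowest of the 4, and its C cells had 599.9 CPM, the highest of the 4.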

How the results depend on the processing

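Of 179 refitted differences of single genes from the mean of the classes, 174 kept their call. Direction was compared only where a difference was called. In cells thinned to 1000 UMIs, 1 gene (Gpx4) was called higher in place of 3, since the difference of Cat was 0.29 (adjusted p = 0.25, edgeR) and Txnrd1 could not be tested. That setting also tested fewer genes, 5291, with 1400 called higher and 1008 lower, against 3427 and 2656. At most 10000 UMIs per cell, 3 genes in place of 6 were at least 1.5-fold apart between follicular libraries, where 58.6% of all genes in place of 40.4% were, and the cause was not tested. With doublets kept, the day 30 to day 5 log2 ratio of Selenop was 0.24 in place of -0.50, and the cause was not tested. Leaving out each library in turn gave 3 to 3 genes higher and 2 to 2 lower against the mean, and 36 to 39 pairs higher and 24 to 29 lower. Over all genes tested, 26.8% to 29.4% were then called higher and 20.3% to 27.1% lower, and of pairs 21.4% to 22.9% and 18.4% to 22.8%. With only 2 classes in a fit there were 44 and 27 such pairs, where 29.9% and 24.3% of pairs over all genes were called. At most 10000 UMIs, where 10 classes could be compared, there were 31 and 25, beside 25.4% and 23.2%. Of 70 library ratios 44 stayed within their counting interval, 25 moved outside it and 1 changed sign. A change of sign was counted only where the main interval left out 0. The median log2 difference of all tested genes lay between -0.06 and 0.10 over the settings. Free RNA could not be subtracted from C cells and parathyroid cells, which were left out of that setting. No paired analysis between ages was possible because each age has 1 library. In the fits between classes the library block pairs the classes of a library, and without it the calls of the 10 genes were the same. Depth limits Txnrd2 in classes of few cells.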
